A study of Mus musculus with 4 samples.

Results

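The growth plate loop of Indian hedgehog and parathyroid hormone-related protein (PTHrP) was followed through 9 genes that carry it: Ihh and Pthlh, which encode the secreted signals, Pth1r, Ptch1 and Smo, which encode the receptors and the signal transducer, Gli1, Gli2 and Gli3, which encode the transcription factors, and Hhip, which encodes a cell surface protein that binds Hedgehog ligands. The members were chosen by name from what is known of the loop, and each was taken as the row of the count matrices whose symbol equals that name, 9 of 53703 features. The samples were 4 single-cell RNA-seq libraries (10x Genomics, 3' chemistry) of metaphyseal cells of the femur and the tibia, from which hematopoietic cells had been depleted by lineage markers, CD45 and CD117. Lats2iECKO mice (2 libraries) carried loxP-flanked Lats2 alleles and the tamoxifen-inducible Cdh5(PAC)-CreERT2 transgene, in which an endothelial promoter drives the recombinase. Control mice (2 libraries) were littermates without Cre. All animals received tamoxifen in adolescence (the deposited labels call the controls untreated) and were analysed at 12 weeks of age on a C57BL/6 background. The paper describes the 2 libraries of each genotype as biological replicates. Both sexes were used in the study, and nothing states the sex of a library or whether a library came from 1 animal or from several.

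In the growth plate, chondrocytes pass from a resting zone through proliferating columns to a pre-hypertrophic and a hypertrophic zone before bone replaces them. Cells that leave the columns make Indian hedgehog, which binds Patched 1, frees Smoothened from its inhibition and lets the Gli factors change transcription, while resting and periarticular cells make PTHrP, which acts through the PTH1R receptor to keep neighbouring chondrocytes from enlarging. Ptch1, Hhip and Gli1 are themselves targets of the pathway, so that receiving cells raise the first 2, which hold the ligand back. PTH1R is also the receptor through which parathyroid hormone acts on osteoblasts.

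On the mouse assembly GRCm39 (GENCODE release M39) Ihh lies at chr1:74984474-74990837 on the minus strand, Pthlh at chr6:147153599-147165681 (minus), Pth1r at chr9:110550767-110576259 (minus), Ptch1 at chr13:63656142-63721412 (minus), Smo at chr6:29735407-29762532 (plus), Gli1 at chr10:127165751-127177865 (minus), Gli2 at chr1:118761858-118982598 (minus), Gli3 at chr13:15637809-15904611 (plus) and Hhip at chr8:80692480-80784658 (minus). All 9 are protein-coding genes. The 250 bases before the start of each canonical transcript were searched on both strands for the GLI core motif GACCACCCA, since Gli factors are the loop's transcription factors, and for the cyclic AMP response palindrome TGACGTCA, since PTH1R signals through cyclic AMP. Of the 9 members only Ptch1 held the first, as its reverse complement TGGGTGGTC in capitals, which begins 165 bases before the start, and among 21770 promoters of the same length 41 (0.188%) held it. Only Hhip held the second, 54 bases before its start, as did 369 (1.69%) of these promoters. The windows of the target genes Ptch1 (chr13:63714093-63714342, minus strand) and Gli1 (chr10:127177866-127178115, minus strand, no match) are shown because Ptch1 was called between genotypes in several classes and Gli1 in none. Neither window overlaps an annotated exon.
Ptch1: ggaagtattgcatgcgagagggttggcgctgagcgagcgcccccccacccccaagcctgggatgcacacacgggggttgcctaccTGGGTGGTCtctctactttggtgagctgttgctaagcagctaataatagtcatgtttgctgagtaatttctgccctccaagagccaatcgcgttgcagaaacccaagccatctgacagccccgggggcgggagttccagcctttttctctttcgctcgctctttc
Gli1: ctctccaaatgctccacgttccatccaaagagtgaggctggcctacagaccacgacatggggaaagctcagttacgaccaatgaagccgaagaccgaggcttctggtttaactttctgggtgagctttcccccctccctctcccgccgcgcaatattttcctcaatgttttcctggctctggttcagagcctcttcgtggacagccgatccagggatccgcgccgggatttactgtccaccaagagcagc

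The libraries held 69636600 to 85899079 unique molecular identifiers (UMIs), and 24599 barcodes with at least 1000 UMIs and 800 genes also passed limits on mitochondrial and hemoglobin reads, 5119 and 5887 from Lats2iECKO and 6813 and 6780 from control. Between 6 and 16 barcodes were shared by any 2 libraries. Each barcode was placed in a class by markers that include no member, which left 20278 barcodes in 16 classes: chondrocytes that looked resting, columnar, pre-hypertrophic, hypertrophic, superficial, cycling or Msmp/Chrdl2-positive, stroma that looked metaphyseal or Lepr/Adipoq-positive, and osteoblast-, fibroblast-, mural-, endothelial-, leukocyte-, erythroid- and Schwann-like cells. These short names stand for marker gates. The barcodes left out differed between genotypes. Chondrocytes of no zone made up 8.38% and 8.68% of kept barcodes in Lats2iECKO and 3.42% and 3.41% in control. Barcodes of no class made up 14.1% and 14.7% against 6.27% and 6.73%, and those with 2 cell types 0.879% and 1.09% against 2.42% and 2.52%. The part of this in the comparisons was not tested. Of the 3801 columnar, pre-hypertrophic and hypertrophic barcodes 706 lay within 0.05 of a zone threshold. In each of these 3 classes all 10 chondrocyte markers averaged at least 10 CPM, where CPM are counts scaled to the same total in every sum. Lats2 in endothelial cells, the targeted gene in the targeted cells, was at 91.1 and 97.3 CPM in Lats2iECKO and at 133 and 123 CPM in control, with a difference of -0.36 on the log2 scale (SE 0.08, adjusted p = 0.00506). A level below is CPM over the summed counts of a class in 1 library, and differences were tested with edgeR's quasi-likelihood test, whose p-values were adjusted over all genes tested in that class by the Benjamini-Hochberg method. A difference was called at an adjusted p under 0.05. An exact permutation test of 2 against 2 libraries has p = 0.333 as its smallest value, so each call rests on the spread estimated across genes.

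The hypertrophic gate held far more Lats2iECKO than control barcodes, 498 and 535 against 43 and 39, or 9.73% and 9.09% against 0.631% and 0.575% of all kept barcodes. The barcodes in this gate differed in their own markers as well. Spp1, a matrix protein of late hypertrophic cells, stood at 8990 and 11060 CPM in Lats2iECKO and at 53249 and 60234 CPM in control, and Mmp13, a collagenase of the same stage, at 827 and 955 against 2212 and 2778 CPM. Loxl4 went the other way, with 589 and 590.0 against 233 and 257 CPM. Their median depth was 9122.5 and 8613 against 15080.0 and 10788 UMIs. The pre-hypertrophic gate held 356, 344, 382 and 380 barcodes and the columnar gate 214, 226, 380 and 404, in the order Lats2iECKO 1, Lats2iECKO 2, control 1 and control 2 that is used throughout. Whether these differences in the make-up of a gate play a part in the members' values was not tested.

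**Figure D1:**
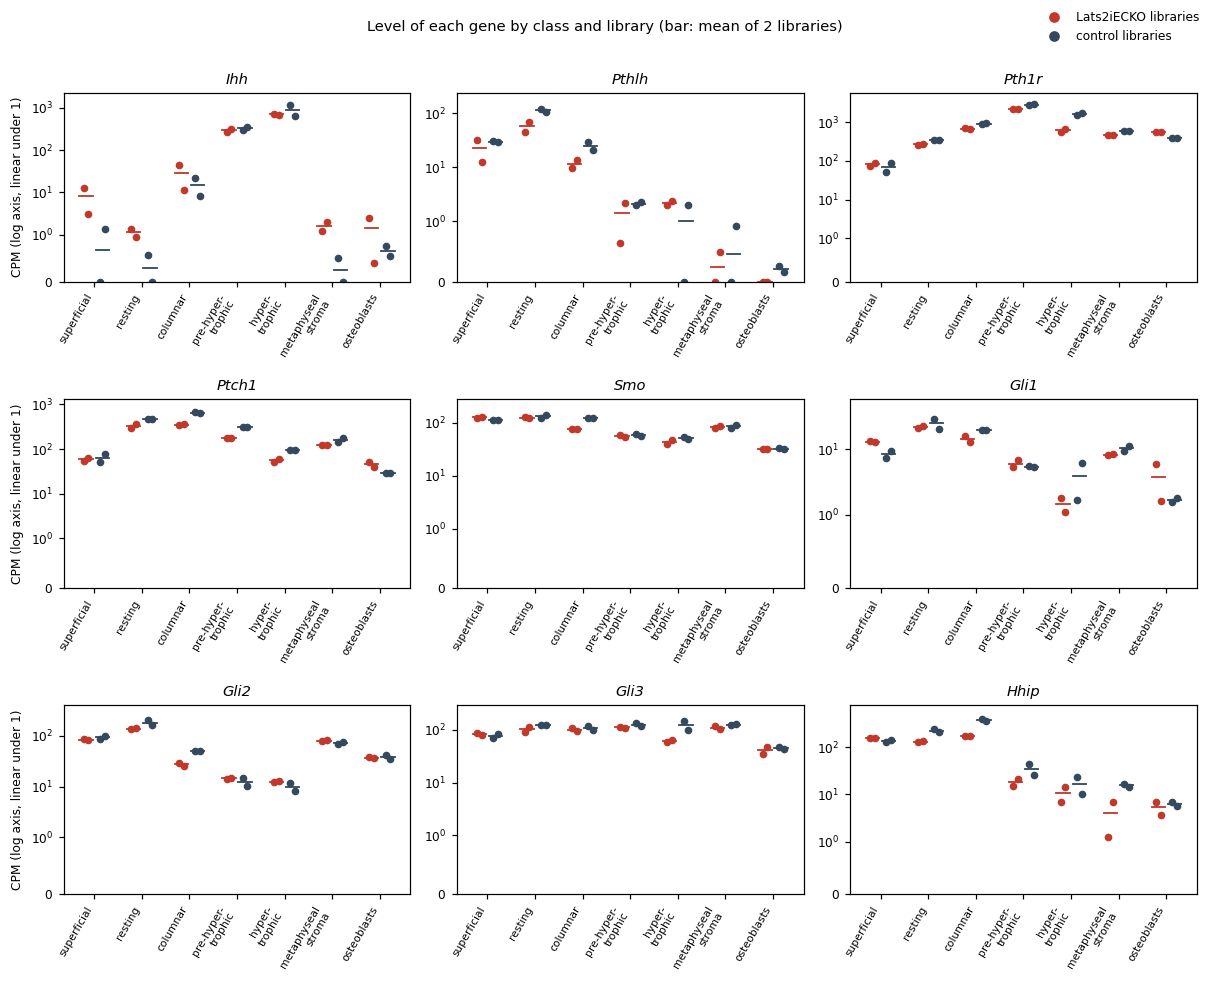
Level of each of the 9 genes (CPM, log axis that is linear under 1) in 7 classes, with 1 point per library and a bar at the mean of 2 libraries, Lats2iECKO in red and control in dark grey. Ihh peaked in the hypertrophic class and Pth1r in the pre-hypertrophic class, and Ptch1 and Hhip were lower in Lats2iECKO than in control in the columnar class.

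Ihh, the Hedgehog ligand of the growth plate, was highest in the last 2 zones of the plate in both genotypes. Hypertrophic chondrocytes held 731, 673, 1145 and 653 CPM and pre-hypertrophic chondrocytes 273, 326, 294 and 359.8 CPM. Columnar chondrocytes held 44.4, 11.6, 21.6 and 8.10 CPM, and no resting library was above 2 CPM. In the fit over all classes the hypertrophic level was 8.04 (SE 0.21) above the mean of the other classes on the log2 scale (adjusted p = 1.08e-36) and the pre-hypertrophic level 6.92 (SE 0.22, adjusted p = 3.79e-34). Of all 16425 genes, 36.8% differed from the other classes by that test in the hypertrophic and 44.2% in the pre-hypertrophic class. The hypertrophic and the pre-hypertrophic levels did not overlap in either genotype, whereas from the columnar class downward neighbours in the order of levels overlapped, except for resting and Msmp/Chrdl2 chondrocytes, the last pair in Lats2iECKO.

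Neither zone gave a call for Ihh between genotypes. The 2 groups overlapped in both, with a log2 fold change of -0.08 (95% interval -0.29 to 0.13, adjusted p = 0.632) in pre-hypertrophic and of -0.31 (-0.69 to 0.08, adjusted p = 0.298) in hypertrophic chondrocytes. The pre-hypertrophic difference passed the test at -0.25 both without control replicate 1 (adjusted p = 0.0277) and under clusters in place of gates (adjusted p = 0.043). The hypertrophic one passed at -0.58 without control replicate 2 (adjusted p = 0.00727) and at -0.51 under clusters (adjusted p = 0.000366). In columnar chondrocytes the groups overlapped (1.08, adjusted p = 0.103), and 5 of the alternatives called Ihh higher there, among them the absence of Lats2iECKO replicate 2 (1.74) or of control replicate 1 (1.91). Without Lats2iECKO replicate 1 it was -0.21. Each columnar level was below that of Ihh in droplets with 10 to 100 UMIs of the same library, at 133, 114, 39.4 and 46.4 CPM. The share of barcodes with an Ihh count above 0 was 52.2%, 56.7%, 54.7% and 54.2% in the pre-hypertrophic class. After each barcode with at least 3000 UMIs had been thinned to that number, and the others left out, it was 35.9%, 32.9%, 35.2% and 36.8%. The groups overlapped again. In resting chondrocytes, which should lack the gene, the thinned share was 0 of 221, 245, 153 and 156 barcodes.

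Over all kept barcodes the amount of Ihh differed more than its level within a zone. It made up 136 and 121 CPM in Lats2iECKO and 44.9 and 44.8 CPM in control. The hypertrophic gate held 50.5% and 49.8% of these counts in Lats2iECKO and 22.5% and 10.3% in control, and the pre-hypertrophic gate 23.0% and 26.1% against 61.8% and 76.2%. So in control most Ihh counts lay in pre-hypertrophic barcodes, and in Lats2iECKO the larger share lay in hypertrophic ones. Droplets with 10 to 100 UMIs, which stand for free RNA, held 133 and 114 CPM of Ihh in Lats2iECKO and 39.4 and 46.4 CPM in control.

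**Figure D2:**
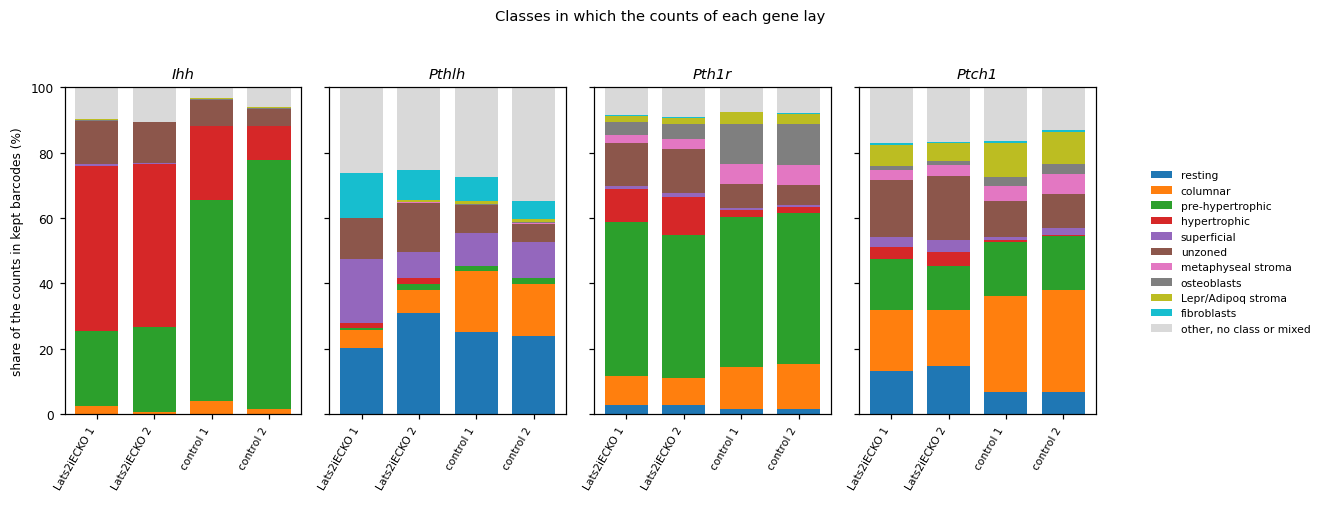
Share (%) of the counts of Ihh, Pthlh, Pth1r and Ptch1 in each library that lay in each class, as stacked bars that add up to all counts in kept barcodes. The red hypertrophic part holds 50.5% and 49.8% of Ihh in Lats2iECKO and 22.5% and 10.3% in control.

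Ihh passed the count filter in 5 of the 16 classes, and endothelial cells were the only class in which it was called. Their levels were 12.0, 4.52, 0.347 and 1.28 CPM, all below the 133 and 114 CPM of Ihh in empty droplets of the mutant libraries, with a log2 fold change of 3.37 (SE 0.60, adjusted p = 0.00121). The 2 groups did not overlap. In this class 35.7% of 14289 genes were called and 18.6% were higher, and Ihh was the only one of the 7 members tested that was. An Ihh count above 0 was seen in 1.88%, 1.201%, 0.245% and 0.867% of endothelial barcodes. After thinning, which left out 76, 90, 167 and 157 endothelial barcodes, the shares were 0.656%, 0.694%, 0.154% and 0.769%, in which the groups overlapped. Outside the plate the mean of Ihh was higher in Lats2iECKO than in control in other classes too. It was 2.90 against 0.631 CPM in mural cells and 1.60 against 0.247 CPM in metaphyseal stroma. In erythroid cells it was 5.15 against 0.810 CPM, and in Lepr/Adipoq stroma 3.34 against 0.916 CPM. Superficial chondrocytes, at 8.01 against 0.668 CPM, were not called. Msmp/Chrdl2 chondrocytes went the other way (0 against 2.63 CPM). Free RNA of Ihh moved with these values, and its part in them was not tested.

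Pthlh, which encodes PTHrP, was highest in resting chondrocytes and fibroblasts. Resting chondrocytes held 45.0, 70.5, 121 and 106 CPM, fibroblasts 82.8, 52.7, 62.4 and 47.4 CPM and superficial chondrocytes 32.2, 12.8, 31.2 and 29.0 CPM. In the fit over all classes Pthlh was 5.18 (SE 0.20, adjusted p = 8.06e-30) above the other classes in resting chondrocytes on the log2 scale, a class in which 39.8% of genes had a level that was called. Pre-hypertrophic and hypertrophic chondrocytes, where Ihh was high, were at 2.26 CPM or less in each library but hypertrophic Lats2iECKO 2. By the gates Ihh and Pthlh were thus highest at opposite ends of the zones of the plate. When Leiden clusters took the place of the gates, control Pthlh was higher in columnar than in resting chondrocytes (values in the next paragraph). Among 186 to 209 pre-hypertrophic barcodes with Ihh in a library 0% to 2.56% also held a Pthlh count, beside 1.05% to 3.49% of all barcodes of the class.

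Pthlh was lower in Lats2iECKO in the resting and the columnar gate. Both resting control libraries were above both mutant ones, with a log2 fold change of -0.88 (SE 0.18, adjusted p = 0.00859). In columnar chondrocytes Pthlh was at 9.70, 13.5, 29.1 and 21.1 CPM, which gave a log2 difference of -0.98 (SE 0.21, adjusted p = 0.00355), beside 24.4, 11.8, 9.65 and 10.01 CPM in empty droplets. The resting result was lost without either Lats2iECKO library (adjusted p = 0.255 and 0.17) and depended on how barcodes were assigned. When Leiden clusters named from the same markers took the place of the gates, resting chondrocytes held 39.1, 36.1, 17.1 and 19.5 CPM and the difference turned to 1.11 (adjusted p = 0.00761), while the columnar clusters held 3.51, 5.83, 57.3 and 39.1 CPM. With both zones joined, Pthlh was at 25.5, 39.6, 51.4 and 40.6 CPM by gates and at 18.1, 19.4, 51.4 and 35.7 CPM by clusters, and under either the groups did not overlap. Under stricter gates the joined values, 26.5, 41.4, 48.0 and 40.2 CPM, did. Over all kept barcodes it was at 12.4, 12.0, 12.3 and 11.4 CPM.

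Pth1r, the receptor for PTHrP and parathyroid hormone, was highest in pre-hypertrophic chondrocytes. It reached 2183, 2254, 2738 and 2875 CPM there, 575, 655, 1530.1 and 1699 CPM in hypertrophic and 695, 656, 898 and 937 CPM in columnar chondrocytes. Metaphyseal stroma held 471, 457, 580.1 and 593 CPM and osteoblasts 560.4, 554, 395 and 396 CPM. In control the order ran from pre-hypertrophic over hypertrophic, columnar, cycling, metaphyseal, osteoblast and resting to Lepr/Adipoq stroma, with no overlap between neighbours. In Lats2iECKO the hypertrophic libraries lay below the columnar ones, though by little (655 and 656 CPM for the nearest pair).

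Among the classes in which Pth1r was called, its largest difference was in hypertrophic chondrocytes. In leukocytes, where the fold change was larger, it rested on 7 to 18 counts a library and was not called (1.71, adjusted p = 0.149). The mutant libraries were at 575 and 655 CPM and the control libraries at 1530.1 and 1699 CPM, which gave a log2 difference of -1.35 (SE 0.15, adjusted p = 0.000108), which is 0.391 times the control level. The groups did not overlap, and the call was kept in each of 14 alternative settings, between -1.60 and -1.03. A Pth1r count above 0 was found in 71.7%, 74.4%, 93.0% and 94.9% of hypertrophic barcodes and, at 3000 UMIs per barcode, in 50.1%, 57.1%, 83.3% and 76.3%. Thinning left out 45, 41, 1 and 1 hypertrophic barcodes that had fewer UMIs. The difference in this class lay -1.39 (SE 0.17, adjusted p = 3.04e-08) from the mean difference over the other classes, a comparison that called 11.5% of all genes. It lay -1.30 (SE 0.14, adjusted p = 1.05e-08) from the mean when only the 11 skeletal and stromal classes were compared, where 13.3% of genes were called. The make-up of this gate by barcodes and markers, given above, moved with it.

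Pth1r also fell in pre-hypertrophic chondrocytes (log2 fold change -0.29, SE 0.06, adjusted p = 0.0032), in columnar chondrocytes (-0.31, SE 0.06, adjusted p = 0.00167) and in metaphyseal stroma (-0.29, SE 0.07, adjusted p = 0.00505). In each of these classes both mutant libraries were below both control libraries. The columnar call was kept in every alternative. The pre-hypertrophic one was lost without either Lats2iECKO library (adjusted p = 0.225 without the first and 0.199 without the second), under stricter gates and under clusters, and the metaphyseal one without either control library, under stricter gates and under clusters, where its fold change was 0.02. Against the mean of the other classes the metaphyseal difference lay at -0.58 (SE 0.16, adjusted p = 0.0248), a comparison that called 3.14% of all genes, but that call was lost under all 7 alternatives, among them the skeletal and stromal classes alone (-0.25, adjusted p = 0.419) and each left-out library. Resting chondrocytes, at 264, 273, 354 and 342 CPM, did not pass (-0.29, adjusted p = 0.0566), though both mutant libraries were below both control libraries. Without control replicate 2 the adjusted p was 0.0431, and under clusters the difference was 0.27.

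Pth1r rose in Lats2iECKO in 4 other classes. In osteoblasts it rose by 0.45 (SE 0.07, adjusted p = 0.01) on the log2 scale, with 560.4 and 554 CPM above 395 and 396 CPM. Leaving out control replicate 1 or control replicate 2 ended that call (adjusted p = 0.2503 and 0.260), while the difference stayed between 0.41 and 0.47 when any library was left out. In mural cells it rose from 67.5 and 66.3 CPM to 107 and 136 CPM (0.91, SE 0.14, adjusted p = 0.00013), and this difference lay 0.83 (SE 0.20, adjusted p = 0.00327) above the mean of the other classes, where 7.79% of genes were called. In Lepr/Adipoq stroma it rose by 0.23 (SE 0.07, adjusted p = 0.0467), a call lost under 7 of 14 alternatives, among them the absence of Lats2iECKO replicate 1 or of either control library. In erythroid cells, at 17.9, 15.6, 7.93 and 8.87 CPM, it rose by 1.203 (SE 0.35, adjusted p = 0.00552). Empty droplets held Pth1r at 459.9, 454, 479.99 and 533 CPM, above each mural, Lepr/Adipoq and erythroid value and above both osteoblast values of control. Among the skeletal and stromal classes alone, the osteoblast difference lay 0.52 (SE 0.14, adjusted p = 0.0323) above the mean of the others, where 2.11% of genes were called in either direction. Over all classes it lay at 0.10 and was not called, and the comparison within skeletal and stromal classes was chosen after seeing the data.

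The osteoblast, mural and erythroid gates differed in the sums of other marker lists too. The 7 hypertrophic markers include Spp1, Ibsp and Mmp13 and summed to 23464.5 and 21082 CPM in control metaphyseal stroma. They therefore do not mark hypertrophic chondrocytes alone. In osteoblast barcodes the 7 hypertrophic markers summed to 9704 and 8928 CPM in Lats2iECKO and to 4655 and 4921 CPM in control, and the 6 osteoblast markers to 207214 and 217004 against 245352 and 241153 CPM. The same hypertrophic markers summed to 5263 and 4912 CPM in mural barcodes of Lats2iECKO and to 223 and 222 CPM in those of control, and the 6 mural markers to 11357 and 11881 against 21639.9 and 22408 CPM. In erythroid barcodes the 10 chondrocyte markers summed to 590 and 569 CPM in Lats2iECKO and 301 and 276 CPM in control. Their part in the calls in these classes was not tested.

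**Figure D3:**
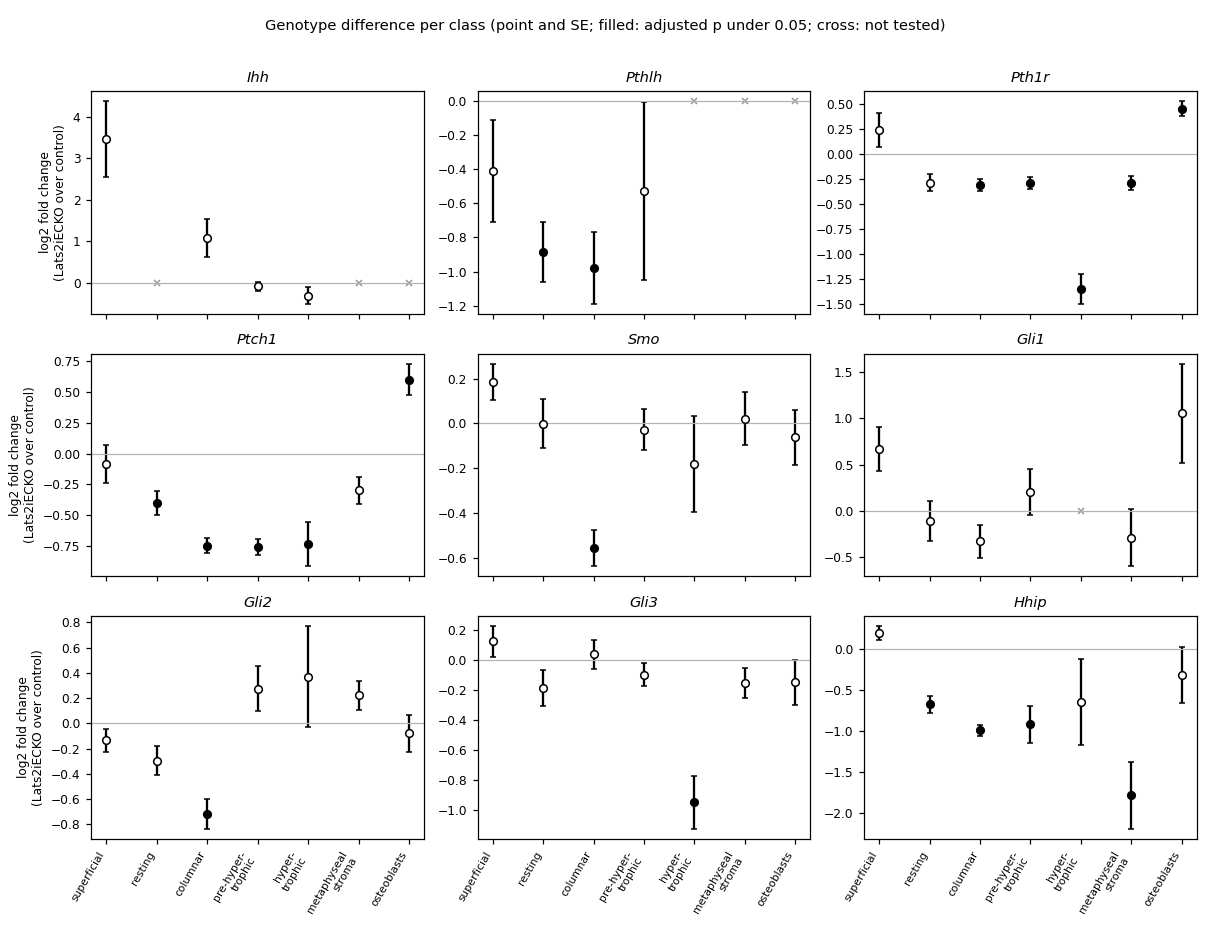
Log2 fold change of Lats2iECKO over control for each of the 9 genes in 7 classes, with its standard error as a bar, filled where the adjusted p was under 0.05, open where it was not, and a grey cross at 0 where the gene was not tested. Columnar chondrocytes hold 6 filled points below 0, and Pth1r in hypertrophic chondrocytes lies at -1.35.

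Ptch1, the Hedgehog receptor and a target of the pathway, was highest in columnar chondrocytes. These held 346, 359.7, 666 and 633 CPM, cycling chondrocytes 228, 262, 618 and 392.2 CPM, resting ones 299.7, 363, 463 and 466 CPM and pre-hypertrophic ones 173, 181, 314 and 308 CPM. Metaphyseal stroma, which lies beside the hypertrophic zone, was at 121, 125, 141 and 172 CPM. Over both genotypes the columnar level lay 2.95 (SE 0.13) above the mean of the other classes on the log2 scale (adjusted p = 1.3e-27), and 45.1% of genes were called in that comparison. In control the cycling level overlapped the resting one, and in Lats2iECKO the columnar level did. Hypertrophic chondrocytes, the class with the most Ihh, stood at 50.7, 61.3, 95.7 and 97.3 CPM. Empty droplets held Ptch1 at 108, 109.7, 129 and 111 CPM, above each hypertrophic and osteoblast value.

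Ptch1 fell in Lats2iECKO in each of the 4 zones of the plate. The log2 fold change was -0.75 (SE 0.06, adjusted p = 8.47e-07) in columnar, -0.76 (SE 0.06, adjusted p = 1.16e-05) in pre-hypertrophic, -0.74 (SE 0.18, adjusted p = 0.0154) in hypertrophic and -0.40 (SE 0.10, adjusted p = 0.0256) in resting chondrocytes, and in none of the 4 did the groups overlap. It also fell in cycling chondrocytes (-0.95, SE 0.21, adjusted p = 0.0209), where control replicate 1 was far above control replicate 2 and the call was lost without it (-0.57, adjusted p = 0.288) and with doublets left out (-0.73, adjusted p = 0.115). Only the columnar call was kept in all 14 alternatives, at -0.97 to -0.73. The pre-hypertrophic call was lost without either Lats2iECKO library (adjusted p = 0.181 and 0.165), though its fold change stayed between -0.79 and -0.74 when any library was left out, the hypertrophic one without Lats2iECKO 1, Lats2iECKO 2 or control 2 and with DESeq2, and the resting one without either Lats2iECKO library and under 3 other settings. Under clusters the resting class held 276, 333, 300 and 338 CPM, with a fold change of 0.01.

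At 3000 UMIs per barcode Ptch1 was seen in 53.3%, 60.9%, 77.4% and 72.8% of columnar and in 31.3%, 32.3%, 50.5% and 48.1% of pre-hypertrophic barcodes, without overlap of the groups in either. In metaphyseal stroma Ptch1 did not pass (-0.30, adjusted p = 0.06), and in Lepr/Adipoq stroma it was at 122, 107, 115 and 113 CPM (0.04, 95% interval -0.11 to 0.18). Osteoblasts again went the other way, with 51.6, 39.6, 28.4 and 29.3 CPM and a log2 difference of 0.60 (SE 0.13, adjusted p = 0.0318). That call was lost without Lats2iECKO 1 or either control library and with DESeq2. The osteoblast difference of Ptch1 lay 0.92 (SE 0.23, adjusted p = 0.0266) above the mean of the other skeletal and stromal classes, where 2.11% of genes were called, but over all classes it lay at 0.64 and was not called (adjusted p = 0.0958). Compared with the mean of the other classes the difference of Ptch1 was lower in columnar (-0.68, SE 0.17, adjusted p = 0.0186), cycling (-0.93, SE 0.20, adjusted p = 0.00821) and pre-hypertrophic chondrocytes (-0.66, SE 0.17, adjusted p = 0.0229), where 2.39%, 1.56% and 2.48% of all genes were called in this way. The columnar one was lost under 6 of 7 alternatives and the pre-hypertrophic one under all 7, among them each left-out library.

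Hhip, the decoy receptor that Hedgehog signaling induces, was highest in columnar chondrocytes. Its columnar level was 176, 175, 395 and 370.1 CPM (log2 fold change -0.99, SE 0.07, adjusted p = 1.8e-07), and no alternative of 14 ended the call. Resting chondrocytes were at 132, 133, 242 and 208 CPM (-0.67, SE 0.10, adjusted p = 0.00135), and pre-hypertrophic ones at 14.8, 21.2, 44.3 and 26.01 CPM (-0.92, SE 0.23, adjusted p = 0.0134), each of the latter below the 50.3 to 63.5 CPM of Hhip in empty droplets. Both calls were lost without either Lats2iECKO library and with no filter on low counts, and the pre-hypertrophic one under stricter gates too. When a library was left out the pre-hypertrophic difference lay between -1.25 and -0.52 and the resting one between -0.77 and -0.58. In each of the 3 zones the groups did not overlap, and in hypertrophic chondrocytes, at 6.93, 14.2, 23.1 and 10.1 CPM, they did.

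Hhip was low in both stromal classes. It fell in metaphyseal stroma, at 1.24, 6.84, 16.8 and 14.3 CPM (-1.78, SE 0.40, adjusted p = 0.004), and in Lepr/Adipoq stroma, at 4.26, 8.49, 15.9 and 12.9 CPM (-1.11, SE 0.26, adjusted p = 0.0133). Each call was lost without control replicate 1 and under clusters, and the metaphyseal one under stricter gates. The metaphyseal difference was -3.56 without Lats2iECKO replicate 2 and -1.14 without Lats2iECKO replicate 1. When a library was left out the Lepr/Adipoq difference ran from -1.71, without Lats2iECKO replicate 2, to -0.73. Over all its alternatives the smallest was -0.55. Each of these levels was below that of empty droplets as well. The 7 metaphyseal markers summed to 6789 and 6918 CPM in the metaphyseal barcodes of Lats2iECKO and to 12751 and 12075 CPM in those of control, and the 6 mural markers to 235 and 250.01 against 109.7 and 131 CPM. Their part in the calls in this class, those of Pth1r and Hhip, was not tested. Superficial chondrocytes, with 155, 155, 131 and 147 CPM, did not pass (0.19, 95% interval 0.03 to 0.35, adjusted p = 0.28). Both mutant libraries were above both control libraries there, by a small margin, and under clusters the difference was -0.39 (adjusted p = 0.0244).

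Smo, the transducer that Patched 1 holds inactive, was spread more evenly over the classes. It stood at 126, 125, 125 and 141 CPM in resting, 126, 128, 113 and 115 CPM in superficial and 81.4, 86.4, 78.6 and 92.2 CPM in metaphyseal cells. It fell in columnar chondrocytes, from 122 and 124 CPM to 76.0 and 77.3 CPM (log2 fold change -0.56, SE 0.08, adjusted p = 0.000144), and the groups did not overlap. In pre-hypertrophic chondrocytes, at 58.0, 54.4, 62.8 and 55.9 CPM, the groups overlapped (-0.03, 95% interval -0.21 to 0.15). The columnar difference lay -0.73 (SE 0.13, adjusted p = 0.000908) from the mean of the other classes, and -0.46 (adjusted p = 0.0302) among skeletal and stromal classes, where 2.43% of genes were called. The difference from all other classes was lost without Lats2iECKO replicate 2 (adjusted p = 0.173). In erythroid cells Smo rose from 4.76 and 5.60 to 17.9 and 22.0 CPM (2.16, SE 0.37, adjusted p = 1.61e-07), which is below the 48.8 and 52.1 CPM of Smo in empty droplets of the same mutant libraries. The erythroid difference lay 2.17 (SE 0.34, adjusted p = 8.22e-06) above the mean of the other classes, where 10.4% of genes were called.

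Of the transcription factors Gli2, the main activator of the pathway, fell in columnar chondrocytes. Its level was 29.4, 25.7, 49.2 and 49.7 CPM there, which gave a log2 difference of -0.72 (SE 0.12, adjusted p = 0.000396), and the groups did not overlap. Among skeletal and stromal classes this difference lay -0.70 (SE 0.16, adjusted p = 0.00912) from the mean of the others, where 2.43% of genes were called, but over all classes it was not called and the fit gave no usable standard error. Gli2 was highest in resting chondrocytes, at 133, 144, 200.5 and 160.1 CPM, where it did not pass (-0.29, adjusted p = 0.159). It fell in Lepr/Adipoq stroma (32.4, 32.5, 44.0 and 42.2 CPM, -0.37, SE 0.09, adjusted p = 0.0207), a call lost without either control library and with DESeq2, and rose in mural cells (17.0, 21.1, 14.5 and 7.37 CPM, 0.85, SE 0.30, adjusted p = 0.0423). Each mural value was below Gli2 in the empty droplets of its library, at 22.3, 21.3, 20.8 and 18.3 CPM.

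Gli3, whose product acts mostly as a repressor of Hedgehog targets, was nearly level across the plate in control. Columnar chondrocytes stood at 106, 95.1, 117 and 98.5 CPM, pre-hypertrophic ones at 115, 109.98, 132 and 118 CPM and resting ones at 92.4, 112, 124.5 and 123 CPM, and none of these differences was called. Gli3 fell in the hypertrophic class, with 59.4, 64.5, 147 and 97.3 CPM (-0.95, SE 0.18, adjusted p = 0.00336), where the groups did not overlap. The call was lost without Lats2iECKO replicate 1 (adjusted p = 0.059) or control replicate 1 (adjusted p = 0.0732), and this difference lay -0.74 (SE 0.18, adjusted p = 0.00423) from the mean of the other skeletal and stromal classes, where 13.3% of genes were called. Over all classes it lay at -0.55 and was not called (adjusted p = 0.187). In mural cells Gli3 rose from 30.9 and 30.1 to 51.9 and 52.8 CPM (0.82, SE 0.15, adjusted p = 0.000816), beside 38.3 to 42.8 CPM in empty droplets.

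Gli1, a direct target often read as a gauge of the pathway, was not called in any of the 9 classes in which it passed the count filter, with edgeR's quasi-likelihood test. At an unadjusted p under 0.05 it gave 1 class, and DESeq2 called it in 0 of 6 classes. Columnar chondrocytes held 15.9, 12.7, 19.5 and 19.8 CPM, so that both mutant libraries were below both control libraries by a small margin (-0.33, 95% interval -0.68 to 0.02, adjusted p = 0.209). Resting chondrocytes held 20.7, 22.3, 29.1 and 20.1 CPM and superficial ones 13.2, 12.8, 7.26 and 9.35 CPM (0.67, adjusted p = 0.176). In osteoblasts Gli1 passed under clusters (1.34, adjusted p = 0.0261) and without Lats2iECKO replicate 2 (1.74, adjusted p = 0.0242), and it was at -0.07 without Lats2iECKO replicate 1. A columnar barcode held a count of Gli1 in 18.1% to 25.2% of cases, and after thinning in 5.19% to 6.73%.

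Across classes the columnar gate had the most members called. All 9 passed its count filter and 6 fell, Pthlh, Pth1r, Ptch1, Smo, Gli2 and Hhip, in a class where 23.8% of 12926 genes were called and 10.2% were lower. The median log2 fold change was -0.56 over the 9 members and -0.00 over all genes. Markers moved with these calls: in columnar barcodes the 4 superficial markers summed to 372 and 389 CPM in Lats2iECKO and to 102 and 76.2 CPM in control, and the 10 chondrocyte markers to 54077 and 55642 against 64841 and 64677 CPM. In pre-hypertrophic chondrocytes 3 of 9 fell (Pth1r, Ptch1 and Hhip), where 23.8% of 13415 genes were called and 10% were lower, with a members' median of -0.10. The median hypertrophic score of these barcodes was 0.143 and 0.146 in Lats2iECKO and 0.0873 and 0.0928 in control, and the 4 pre-hypertrophic markers summed to 1818 and 1817.95 against 2754 and 2791 CPM. In hypertrophic chondrocytes 3 of the 7 that passed the filter fell (Pth1r, Ptch1 and Gli3), where 21.5% of 11625 genes were called and 10.1% were lower, with a members' median of -0.65. In resting chondrocytes 3 of 8 fell (Pthlh, Ptch1 and Hhip), where 7.05% of 11400 genes were called and 2.72% were lower, with a members' median of -0.29. The 4 columnar markers summed to 85.4 and 92.6 CPM in resting barcodes of Lats2iECKO and to 221 and 187 CPM in those of control, and the 4 superficial markers to 429 and 569 against 211 and 330.2 CPM. The part of these markers in the calls was not tested.

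In the other classes between 0 and 3 members were called. In metaphyseal stroma 2 of 7 members fell while 20.4% of genes were called and 8.89% were lower, and in osteoblasts 2 of 7 rose while 3.62% were called and 2.92% were higher. In cycling chondrocytes 1 of 7 fell (5.65% of genes called, 1.66% lower). Of 6 members tested in Lepr/Adipoq stroma, 1 rose and 2 fell, where 20.3% of genes were called, 11% higher and 9.39% lower. In these barcodes the 7 metaphyseal markers summed to 1745 and 1848 CPM in Lats2iECKO and to 2532 and 2454 CPM in control, and the 6 osteoblast markers to 892 and 693 against 1529.6 and 1093 CPM, and their part in the calls was not tested. In mural cells 3 of 5 rose (29.2% called, 15.5% higher), and in erythroid cells 2 of 3 (20.3% called, 11.5% higher). In superficial chondrocytes 0 of 9 members were called (3.12% of genes), in fibroblasts 0 of 8 (1.29%), in Msmp/Chrdl2 chondrocytes 0 of 7 (2.56%) and in leukocytes 0 of 2 (1.4%), again with edgeR. At an unadjusted p under 0.05 these 4 classes had 4, 2, 1 and 1 members. The shares above are for adjusted p, and the share of all genes at the unadjusted threshold was not counted. DESeq2, which was not run in leukocytes, called 0 of the 2, 7 and 7 members to which it gave an adjusted p in the first 3 of these classes. No member passed the filter in Schwann cells. Of the 23 calls in skeletal and stromal classes, 7 were kept in every alternative that tested them, the 6 columnar ones and Pth1r in hypertrophic chondrocytes. For columnar Pthlh these were 13 alternatives and for the others 14. How often calls over all genes were kept was not counted.

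The zones are cut from continuous scores, so the 3801 columnar, pre-hypertrophic and hypertrophic barcodes were also laid out in 6 ranges of the score over hypertrophic markers. Ihh climbed along it in every library, from 18.4, 37.2, 28.1 and 29.6 CPM in the lowest range to 857, 893, 910.5 and 934 CPM in the highest. In the third and the fourth ranges both mutant libraries were below both control libraries, with means of 132 against 198 CPM and of 272 against 429 CPM. In the highest range the mutant libraries lay just below the control ones, and in the remaining 3 the groups overlapped.

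Pth1r separated the genotypes in every range of that score. Its mean was 890 against 1368 CPM in the lowest range, a ratio of 0.650, and 1067 against 2917 CPM in the highest, a ratio of 0.366, with the groups apart in all 6. In control it reached 3266 CPM in the fifth range, and in Lats2iECKO 1739.6 CPM. Barcodes of 1 range still differed in the hypertrophic marker Col10a1, a collagen of that zone. Its mean was 2.06 times the control mean in the lowest range and 0.798 times in the highest, with the groups apart in both. The values by score range, for this and the other members, were a description and were not tested. The share of all genes with the groups apart in a range was not counted. All ranges came from the same 4 libraries and from barcodes of the gates above, so they are not independent of each other or of the gates.

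Ptch1 and Hhip ran the other way along the score. Ptch1 went from 377, 359, 682 and 675 CPM in the lowest range to 39.6, 47.7, 121 and 94.4 CPM in the highest, and the groups were apart in each range but the fifth. Hhip stood at 143, 124, 288 and 279 CPM in the lowest range and at 32.7, 50.4, 67.7 and 99.9 CPM in the third, and the groups were apart in the 3 lowest ranges and the highest. Smo was lower in Lats2iECKO in the 2 lowest ranges, with ratios of 0.692 and 0.746, and in the highest (0.772), and higher in the third (1.06), with the groups apart in each of these. Gli3 was lower in the 3 highest, with ratios of 0.744, 0.627 and 0.546.

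**Figure D4:**
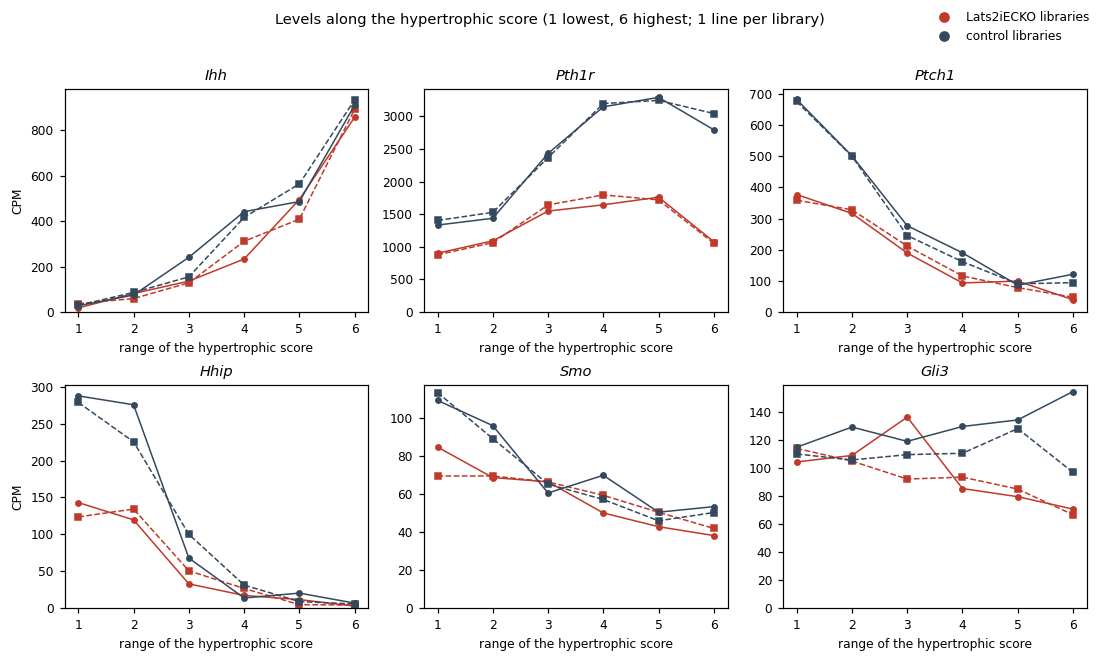
CPM of Ihh, Pth1r, Ptch1, Hhip, Smo and Gli3 in 6 ranges of the hypertrophic score over the columnar, pre-hypertrophic and hypertrophic barcodes, with 1 line per library (red Lats2iECKO, dark grey control, solid replicate 1, dashed replicate 2). Pth1r of both Lats2iECKO libraries runs below both control libraries in all 6 ranges, while Ihh ends between 857 and 934 CPM in all 4 libraries.

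Other genes of the pathways were counted as whole lists. Of 13 further Hedgehog targets 10 were tested in columnar chondrocytes, where 4 rose and 2 fell with a median of 0.07, in a class where 23.8% of all genes were called. Ccnd2, a D-type cyclin, rose from 16.6 and 11.7 to 28.3 and 31.1 CPM (1.21, adjusted p = 0.000154), Bcl2, which blocks apoptosis, rose by 1.19 (adjusted p = 5.64e-05), and Foxf2, a forkhead factor, fell from 15.3 and 17.3 to 6.73 and 6.49 CPM (-1.18, adjusted p = 0.00113). In pre-hypertrophic chondrocytes, where 23.8% of all genes were called too, 4 of 8 rose and 3 fell, Foxf2 among them (-1.86, adjusted p = 0.00973).

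Of 15 genes for Hedgehog ligands, their release and reception, 8 were tested in columnar chondrocytes, where 3 rose and 2 fell beside 23.8% of all genes called. Gas1, a coreceptor that binds the ligand together with Patched 1, rose there from 7.37 and 5.95 to 18.6 and 33.5 CPM (2.10, adjusted p = 3.46e-05). It also rose in pre-hypertrophic (1.81, adjusted p = 0.00768) and resting chondrocytes (66.2 and 134 to 198 and 233 CPM, 1.19, adjusted p = 0.00427). Outside the plate Gas1 rose in osteoblasts (0.78), in endothelial cells (1.33) and most in erythroid cells, from 3.63 and 3.27 to 40.7 and 59.5 CPM (4.07, adjusted p = 7.33e-40). Of all genes 2.92%, 18.6% and 11.5% were higher in these classes. The 10 chondrocyte markers also summed higher in erythroid barcodes of Lats2iECKO, at 590 and 569 against 301 and 276 CPM in control. Gas1 in empty droplets was not counted, and the part of free RNA in these rises was not tested. In pre-hypertrophic chondrocytes 2 of 8 on the list rose and 3 fell beside 23.8% of all genes called, and Boc, another coreceptor, rose by 1.19 (adjusted p = 0.000851). Scube2, whose product helps release the ligand, fell in columnar (-0.86, adjusted p = 0.00141) and pre-hypertrophic chondrocytes (-1.17, adjusted p = 0.00261) and rose in metaphyseal stroma from 2.22 and 3.004 to 16.8 and 16.1 CPM (2.67, adjusted p = 1.62e-05). Hhat, which attaches palmitate to the ligand, fell in hypertrophic chondrocytes from 33.0 and 32.4 to 12.7 and 13.1 CPM (-1.30, adjusted p = 0.00676). It rose in metaphyseal stroma (0.62, adjusted p = 0.035) and in mural cells (1.41, adjusted p = 0.0132).

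Of 16 genes of Hedgehog transduction, 15 were tested in columnar chondrocytes, where 23.8% of all genes were called, and 2 fell, Evc (-0.81, adjusted p = 0.0332) and Iqce (-0.79, adjusted p = 0.0229), parts of the complex that links Smoothened to the cilium. In metaphyseal stroma, where 20.4% of all genes were called, 1 of 14 fell, Sufu, the inhibitor that binds Gli proteins (77.5 and 74.0 to 47.9 and 39.6 CPM, -0.76, adjusted p = 0.000372).

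Of 23 genes of PTHrP and parathyroid hormone signaling, 20 were tested in hypertrophic chondrocytes, where 2 rose and 7 fell with a median of -0.44 beside 0.01 over all genes, of which 21.5% were called and 10.1% were lower. Zfp521, a zinc finger protein that PTHrP induces in chondrocytes, fell from 191 and 191 to 29.9 and 44.2 CPM (-2.32, adjusted p = 2.92e-05). Pde3a, which breaks down cyclic AMP, fell by 1.48 on the log2 scale (adjusted p = 0.000104). Arrb1, an arrestin that binds activated receptors, rose from 9.903 and 4.05 to 49.1 and 43.2 CPM (2.71, adjusted p = 0.00051). The control sums of this class held 605854 and 493228 UMIs, so the control values of Arrb1 rest on few counts. In columnar chondrocytes 4 of 21 rose and 4 fell beside 23.8% of all genes called, and Adcy9, an adenylyl cyclase, fell there (-0.83, adjusted p = 0.00126). In resting chondrocytes 2 of 20 rose and 2 fell beside 7.05% of all genes called. Pde4d, another enzyme that breaks down cyclic AMP, rose there from 119 and 127 to 217 and 211 CPM (0.88, adjusted p = 0.000207). Pde3a fell from 575 and 508 to 243 and 239 CPM (-1.08, adjusted p = 3.05e-05), and Hdac4, a repressor of hypertrophy through Mef2 factors, fell by 0.53 (adjusted p = 0.0177).

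Among 17 partners of the loop in the growth plate, 2 of 15 tested rose and 9 fell in pre-hypertrophic chondrocytes (median -0.23), and 5 of 15 rose and 4 fell in columnar ones, both classes in which 23.8% of all genes were called. Cdkn1a, an inhibitor of cell division, rose in columnar (35.2 and 56.7 to 153 and 124 CPM, 1.71, adjusted p = 2.1e-06), pre-hypertrophic (1.12), hypertrophic (1.74), resting (1.15) and cycling chondrocytes (1.95). Bmp6, a signal of the bone morphogenetic family, rose in columnar (1.53, adjusted p = 0.000246) and pre-hypertrophic chondrocytes (1.23, adjusted p = 0.00256). Wnt5a, a Wnt ligand, fell in pre-hypertrophic chondrocytes from 39.9 and 35.04 to 18.6 and 22.6 CPM (-0.81, adjusted p = 0.000836). Foxa2, a factor of the hypertrophic program, fell in hypertrophic chondrocytes from 42.9 and 52.7 to 10.7 and 15.9 CPM (-1.78, adjusted p = 0.00182). Runx2, which drives both hypertrophy and osteoblast fate, fell in resting chondrocytes from 551 and 438 to 233 and 278 CPM (-0.87, adjusted p = 0.000588).

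Over the 32 control class sums (16 classes in each of 2 libraries) the genes whose levels ran most like those of Ihh were Mypn (r = 0.930), Krtap17-1 and Slc38a4, among 12658 genes. For Pthlh they were Klc3 (r = 0.845), Cst6 and Hoxd9, for Pth1r Tmie (r = 0.910), Shisa4 and Slc8a3, and for Ptch1 Efcab1 (r = 0.939), Rab28 and Col12a1. Smo ran most like Itm2a (r = 0.915), Gli2 like P3h3 (r = 0.910), Gli3 like Rab34 (r = 0.932), Gli1 like Tceal3 (r = 0.909) and Hhip like Fmod (r = 0.912). The points of these correlations share libraries and depth, and they describe the pattern over classes only.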

How the data were processed

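The deposited matrices hold expected counts per gene and barcode, which the authors made with STARsolo 2.7.10a after trimming with cutadapt 3.5, on GRCm39, counting exons and introns and sharing reads that fit several genes by expectation maximisation. Between 9.09% and 9.95% of the entries stored in the matrices, some of which are 0, were not exactly whole. Barcodes were kept that had at least 1000 UMIs and 800 genes, no more than 15% of UMIs from mitochondrial and 5% from hemoglobin genes, and a complexity of at least 0.8, and each was given the class whose marker score was highest (at least 0.15 for cell types and 0.1 for zones, 0.05 above the next). Barcodes with 2 cell types at 0.3 or more were left out as mixed, which also served against doublets. Classes with at least 10 barcodes in every library were compared.

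The expected counts of each class were added up within a library, rounded and tested with edgeR 4.0.16 (filterByExpr, TMM, quasi-likelihood test, Benjamini-Hochberg over all genes of the class). The fit of levels and of differences between classes held all 16 classes with the library as a block. DESeq2 1.42.0 was an alternative. The fits were tried on simulated counts in a few classes, the hypertrophic one not among them. The genes changed there were well counted and the changes large. That trial did not cover low counts, small differences or a fit over all classes. The paper describes 2 biological replicates per genotype and does not say how many animals made up a library. The p-values of genotype tests within a class rest on the spread between these libraries, as estimated across genes. Those of levels and of differences between classes rest on the spread among class sums of the same 4 libraries. They do not measure the spread between replicate libraries alone. The 95% intervals of fold changes come from the same fits, and shares of barcodes carry counting error as well.

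The members and lists were chosen with earlier results of these data known. The genes named were the 9 members in every class compared, and, from 5 pathway lists, up to 3 called genes per list and class. Coordinates are from GENCODE release M39 and come from another release than the counts. Analyses used Python 3.11.15, scanpy 1.11.5 and R 4.3.3.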

Additional observations from a re-analysis of the deposited data

Results flagged for a closer look

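For several members the genotype effect in 1 class differed from its mean in the other classes by the interaction test. That fit gave no usable standard error for Gli1 and Pthlh in any class, or for Ihh in most classes. The same held for Gli2 in columnar and cycling chondrocytes, and for Hhip in columnar chondrocytes, metaphyseal stroma and Lepr/Adipoq stroma. For Hhip in pre-hypertrophic chondrocytes the standard error was 24.1. For Gli2 it was 22.3 in fibroblasts, 12.0 in Lepr/Adipoq stroma, 4.33 in leukocytes, 3.25 in osteoblasts and 3.19 in resting chondrocytes. In these cases the fit could not call a difference, and the absence of a call says nothing about them. For Pth1r this difference on the log2 scale was -1.39 in hypertrophic, -0.59 in columnar and -0.54 in pre-hypertrophic chondrocytes, -0.58 in metaphyseal stroma and 0.83 in mural cells. Those in columnar and pre-hypertrophic chondrocytes and in metaphyseal stroma were lost under each of 7 alternatives, and that in hypertrophic chondrocytes under none of them. For Ptch1 it was -0.68 in columnar, -0.66 in pre-hypertrophic and -0.93 in cycling chondrocytes. The columnar one of these was lost under 6 of the 7 and the pre-hypertrophic one under all 7. For Smo it was -0.73 in columnar chondrocytes and 2.17 in erythroid cells, and for Gli3 it was 1.14 in mural cells. The differences in cycling chondrocytes, mural cells and erythroid cells were put to no alternative, so whether they would be kept is not known.

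Ihh was also seen in barcodes that no comparison used. Barcodes of no class held 101.3 and 100.7 CPM in Lats2iECKO and 5.41 and 1.93 CPM in control, and empty droplets 133 and 114 CPM in Lats2iECKO and 39.4 and 46.4 CPM in control.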

How the results depend on the processing

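The number of calls of members between genotypes, 23 in 11 skeletal and stromal classes, ranged from 16 to 27 over 14 alternatives, and 7 calls were kept in each that tested them (13 for Pthlh in columnar chondrocytes, which did not pass the filter on a count in 20% of cells, and 14 for the others). The share of calls kept over all genes was not counted, so these numbers do not set the members apart from other genes. Of 51 calls of level between classes 41 were kept in each of 8 alternatives. Of the 7 differences from other classes called in the 7 skeletal classes compared here only that of Pth1r in hypertrophic chondrocytes was kept in each of 7 alternatives, and their number was 2 under stricter gates and 1 to 3 when a library was left out. With the replicate block there were 27 calls. The calls in mural, endothelial and erythroid cells were put to no alternative. The replicate numbers do not pair the samples by the labels, and deviations of libraries with the same number correlated at -0.0601 to 0.0673. Among members called by gates or under an alternative, with clusters in place of gates the difference turned for Pthlh (1.11), Pth1r (0.27) and Ptch1 (0.014) in resting chondrocytes, Pth1r (0.023) and Ptch1 (0.33) in metaphyseal stroma, and Hhip (-0.39) and Pthlh (0.081) in superficial chondrocytes, as did the level of Hhip in pre-hypertrophic chondrocytes (-0.73) and the difference from other classes of Pth1r in metaphyseal stroma (0.066) and pre-hypertrophic chondrocytes (0.11). Of members that were called only under an alternative, the difference changed sign when a library was left out for Ihh in columnar (-0.21 to 1.91), pre-hypertrophic (-0.25 to 0.084) and hypertrophic chondrocytes (-0.58 to 0.12), Gli1 in osteoblasts (-0.071 to 1.74), Hhip in fibroblasts (-1.09 to 0.43) and in Msmp/Chrdl2 chondrocytes (-1.18 to 1.18), and Pthlh (-1.20 to 0.13) and Pth1r (-0.062 to 0.65) in superficial chondrocytes. So did the levels of Gli1 in osteoblasts (-0.11 to 0.53), Hhip in hypertrophic (-0.72 to 0.13) and Gli2 in pre-hypertrophic chondrocytes (-0.28 to 0.12), and the difference from other classes of Pth1r in superficial chondrocytes (-0.15 to 0.44). The cause was not tested. Where a library was left out, its group held 1 library, which was assumed to vary like the others. Hypertrophic control barcodes numbered 43 and 39, which limits what can be seen in that class. The comparison within skeletal and stromal classes, the score ranges and the joined zones were chosen after seeing the data.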
